A study of Mus musculus with 10 samples.

Results

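CpG islands that lie within 5 Mb of the distal end of a mouse autosome were examined for DNA methylation in the brain. CpG islands are short runs of DNA in which CpG dinucleotides are frequent, and many lie at promoters. Neighbouring probes of a CpG-island microarray were joined into clusters of at least 3 probes whose starts lay at most 500 bp apart, which gave 13835 clusters. A cluster on chromosomes 1 to 19 was taken as distal where it started within 5 Mb of the highest probe end of its chromosome. This gave 842 distal clusters, set against 12602 other autosomal clusters. The choice used position alone and no measured value. The clusters nearest to the 5 Mb limit on the inner side were chr11:116703682-116705189 and chr4:150502691-150503666, which started 4988.3 and 4981.9 kb from the last probe and had mean levels of -0.14 and -0.09 on the log2 scale. Just beyond the limit, chr4:150481684-150483087 and chr11:116688959-116689541 started at 5002.9 and 5003 kb and had levels of 0.02 and -0.21. All positions are on build mm9, and no probe is paired with a gene in the files used here, so clusters are named by position only.

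The samples were left hemibrains of male C57BL/6j mice, an inbred strain, fed 1 of 3 diets matched for calories. Feeding began at 3 weeks of age and lasted 24 weeks. The diets were ERD, enriched in n-3 polyunsaturated fatty acids with an n-3:n-6 ratio of 7:1 (4 arrays), BLD, balanced at 1:1 (3 arrays), and STD, the standard laboratory diet at 1:6 (3 arrays). The titles of all 10 samples, including ERD and BLD, carry the word CONTROL, and nothing in them says that every array is its own animal, so each p-value reflects only how these samples vary. In methylated DNA immunoprecipitation (MeDIP), an antibody pulls down DNA fragments that carry 5-methylcytosine. On all 10 arrays Cy5 labelled the pulled-down DNA and Cy3 the input. A cluster's value is the mean over its probes of log2(Cy5/Cy3), centred on the median of the array, so 0 stands for the median probe of that array and not for absence of methylation. A hemibrain holds many cell types, and fewer cells with a methylated island cannot be told apart from less methylation per cell.

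Mouse chromosomes carry the centromere at one end, so each has a single end far from it, capped by telomere repeats. CpG islands are mostly unmethylated in normal tissue, while the repeats next to telomeres are known in mice to be methylated by DNA methyltransferases. The array holds unique probes and not the telomere repeats themselves. Distances below are therefore measured to the last probe, and how far that probe lies from the physical end was not used.

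The distal segments were dense in clusters. They held 8.86 clusters per Mb over the 19 chromosomes, against 5.48 per Mb in the rest of the autosomes, where the rest includes the proximal stretch near the centromere. The density was higher in the distal segment on 13 of 19 chromosomes. Chromosome 15 had 120 distal clusters (24 per Mb, against 5.09 per Mb elsewhere on it), chromosome 11 had 106, chromosome 4 had 91 and chromosome 10 had 72. Chromosome 17 had 4 and chromosome 18 had 5, so the distal set is weighted towards a few chromosomes. Of the 5332 probes in the distal segments, 5191 (97.4%) belonged to a cluster. Distal clusters resembled the others in size, with a median of 5 probes in both sets and a median length of 637 bp, against 645 bp. Their spots were well above background in both channels in 87.6% of cases, against 86.7% in the others.

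The MeDIP ratio of the distal clusters was slightly lower than that of the other autosomal clusters. Their median was -0.07 in ERD, -0.04 in BLD and -0.05 in STD, and that of the others was -0.06 in ERD, -0.02 in BLD and -0.04 in STD. Within an array, the distal median minus the median of the others was -0.0147 ± 0.011 (SD, n = 10 arrays) and was below 0 on 10 of 10 arrays, between -0.0349 on array BLD 2 and -0.0025 on array BLD 3. By diet this difference was -0.017 ± 0.0067 in ERD (n = 4), -0.0208 ± 0.0166 in BLD (n = 3) and -0.0056 ± 0.0033 in STD (n = 3). It is small beside the interquartile range of the distal clusters within an array, which was 0.412 ± 0.0433 in ERD, 0.358 ± 0.111 in BLD and 0.271 ± 0.0434 in STD. The log2 input signal of the distal clusters, in the Cy3 channel alone, was higher than that of the others by 0.0561 ± 0.0241 (SD, n = 10) and on 9 of 10 arrays, all but STD 3. After loess, which takes out a dependence of the ratio on spot intensity, the ratio difference was -0.0097, and after normexp background correction it was -0.0013.

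The difference depended on where the limit was set. Within 2 Mb of the last probe, 361 clusters set against those beyond 5 Mb gave -0.0403 ± 0.0191 and were lower on 10 of 10 arrays, while the 481 clusters between 2 and 5 Mb gave 0.0065 ± 0.0148 and were lower on 2 of 10. With the distal limit moved to 10 Mb the difference turned to 0.0098. The bins of 1 Mb described next were chosen after the data were seen. In the outermost Mb, 186 clusters gave -0.0474 ± 0.0297 and were lower on 9 of 10 arrays, with -0.0665 ± 0.0289 in ERD, -0.0527 ± 0.0041 in BLD and -0.0164 ± 0.0218 in STD. The 175 clusters between 1 and 2 Mb gave -0.0332 ± 0.0153 and were lower on 10 of 10. Between 2 and 3 Mb, 161 clusters gave 0.0254 ± 0.0231 and were higher on 9 of 10, and between 5 and 10 Mb, outside the distal set, 661 clusters gave 0.0345 ± 0.016 and were higher on 10 of 10. The lower ratio was thus measured in the outer 2 Mb, and the next bins did not continue it in order, since the bin between 4 and 5 Mb was again lower on 9 of 10 arrays (-0.0175 ± 0.0215). The input signal moved with the ratio over most of these bins. Its difference from the other clusters was -0.0331 ± 0.0351 in the outermost Mb, 0.0418 ± 0.035 between 1 and 2 Mb, 0.0834 ± 0.0627 between 2 and 3 Mb, 0.162 ± 0.0301 between 3 and 4 Mb and 0.0452 ± 0.0335 between 4 and 5 Mb. The outermost Mb was thus lowest in both, and the order over the 5 distal bins differed only in that the bin between 3 and 4 Mb, second in ratio difference (0.0082 ± 0.0236), was first in input. Between 5 and 10 Mb, where the ratio difference was higher than in any distal bin, the input difference was 0.0241 ± 0.0133. After loess the ratio difference of the outermost Mb was -0.0429, and after normexp background correction it was -0.0144.

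**Figure D1:**
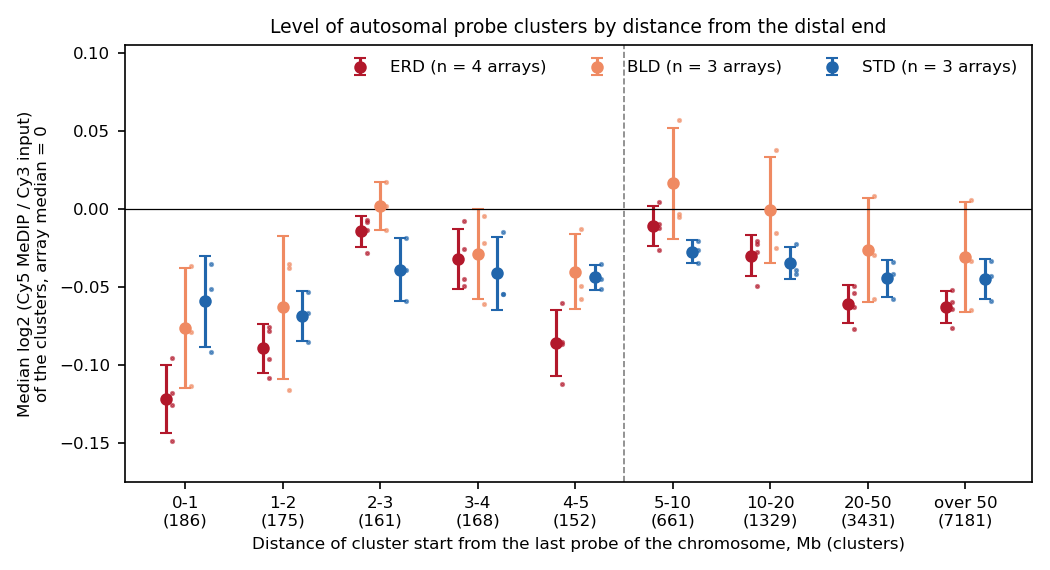
Median log2 ratio of MeDIP over input of the autosomal clusters (vertical axis, array median at 0) by distance of the cluster from the last probe of its chromosome (horizontal axis, Mb, with the number of clusters), for ERD (4 arrays), BLD (3) and STD (3). Large points and bars are means ± SD over arrays, small points are single arrays, and the dashed line marks 5 Mb. In the outermost Mb the means are -0.122 in ERD, -0.0762 in BLD and -0.0593 in STD, and between 5 and 10 Mb they are -0.0108 in ERD, 0.0165 in BLD and -0.0273 in STD.

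The chromosomes did not all show the lower ratio. The distal median lay below the median of the rest of the same chromosome on 12 of 19 chromosomes, and on 11 of the 17 with at least 10 distal clusters. The difference was -0.0908 on chromosome 8 (36 distal clusters), -0.0848 on chromosome 14 (24) and -0.0539 on chromosome 7 (67). It was 0.0533 on chromosome 19 (37 distal clusters), 0.0441 on chromosome 13 (12) and 0.0317 on chromosome 9 (58). All 4 distal clusters of chromosome 17 lay between 0.10 and 0.78.

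**Figure D2:**
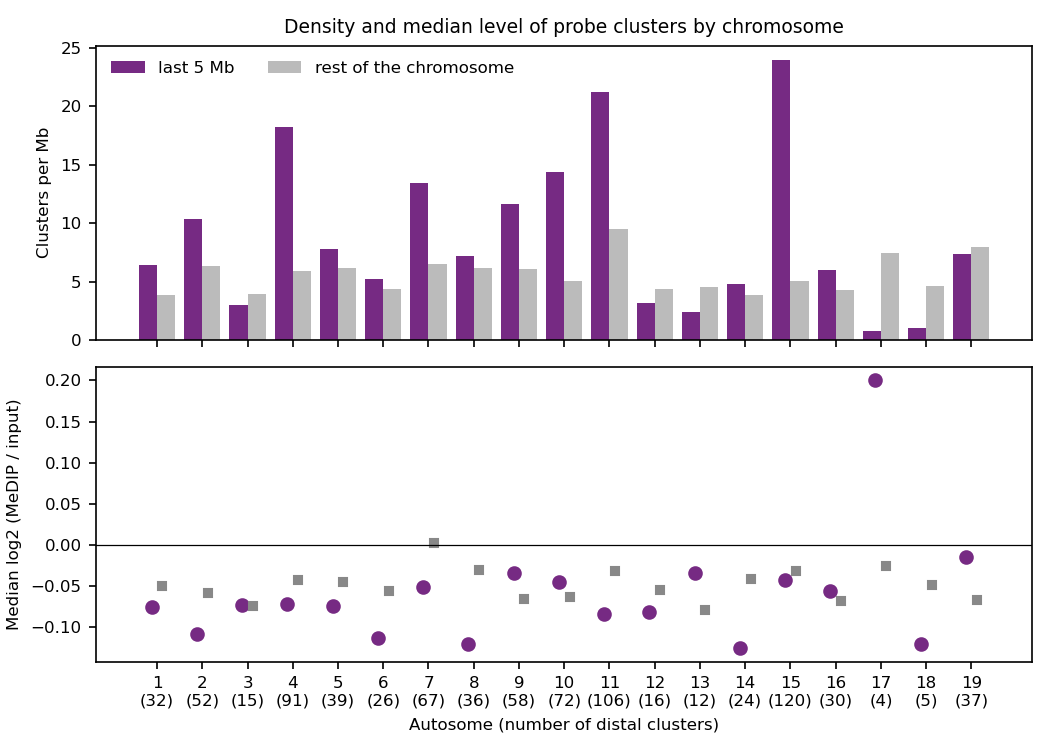
Clusters per Mb (upper panel) and median log2 ratio of MeDIP over input averaged over the diets (lower panel) in the last 5 Mb and in the rest of each autosome, with the number of distal clusters under each chromosome. Chromosome 15 has the densest distal segment at 24 clusters per Mb, and the distal median lies below that of the rest on 12 of 19 chromosomes.

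Single distal islands covered nearly the whole range of the array. Averaged over the diet means, they ran from -0.76 to 1.13, and 62.8% lay below 0, against 59.3% of the others. The lowest and the highest cluster had levels of -0.22 and 0.44 after normexp background correction. It made each of the 6 lowest and 6 highest levels over 1.5 times smaller in size. A set of 59 distal clusters (7.01%) exceeded 0, the median probe, in every array (10 of 10), against 8.25% of the others. A further 136 (16.2%) stayed under 0 in every array, against 16.3% of the others. Islands of many probes had lower levels. Distal clusters of over 10 probes had a median of -0.13 (81 clusters) and 37% of them were below the median on all arrays, against a median of -0.09 and 26.5% for other clusters of that size. Among clusters of 6 to 10 probes the order of the shares was the other way. There 17.3% of the distal ones (301 clusters) were below the median on all arrays, against 20.9% of the others. Their median level was still slightly lower, at -0.0903 against -0.0837. Distal clusters of 3 to 5 probes had a median of -0.02 (460 clusters), against 0.0023 for the others.

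The highest distal level was at chr9:122075655-122076150, a cluster of 4 probes 1685.7 kb from the last probe of chromosome 9. Its log2 ratio was 0.56, 1.47, 0.79 and 1.44 in ERD, 1.15, 0.87 and 0.93 in BLD, and 0.92, 1.88 and 1.26 in STD. Each of its 4 probes averaged at least 0.65 in each diet, and the diets overlapped. The next highest were chr9:122656143-122656538 (level 0.86), chr2:178141876-178142402 (0.84), chr2:180763528-180763869 (0.79), chr5:148673891-148674376 (0.79) and chr17:91487196-91488157 (0.78). The ERD and STD arrays overlapped in all of these 6 islands but the chr5 one, which is described below.

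The lowest distal level was at chr4:154998541-154999239, a cluster of 6 probes 486 kb from the last probe of chromosome 4. Its log2 ratio was -0.84, -1.13, -0.79 and -1.12 in ERD, -0.80, -0.82 and -0.72 in BLD, and -0.79, -0.57 and -0.27 in STD. All 10 arrays had it below their median, and ERD 3 and STD 1 had nearly the same value. Its 2nd probe, well above background on 10 of 10 arrays, averaged -1.17 ± 0.22 in ERD, -1.23 ± 0.35 in BLD and -0.70 ± 0.14 in STD. Its 4th probe was well above background on 3 of 10, none of them STD, so no ratio of that probe is given. The 1st was well above background on 4 of 10. Both probes enter the level and the array values of this cluster, which thus rest in part on spots near background. The other low islands were chr9:123626490-123626917 (level -0.74), chr7:149088055-149088473 (-0.72), chr1:193398739-193399990 (-0.64), chr3:153575673-153576104 (-0.62) and chr9:120213241-120213544 (-0.60).

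The last cluster of each chromosome was read separately, a selection made after the data were seen. On 15 chromosomes it holds the last probe of the chromosome. Of these 19 clusters, 14 had a level below 0 and 5 above 0, with a median of -0.08 and a range of -0.47 to 0.38. The lowest was chr14:124025860-124026289, with -0.76, -0.45, -0.62 and -0.37 in ERD, -0.54, -0.70 and -0.23 in BLD, and -0.32, -0.50 and -0.32 in STD. All 10 arrays had it below their median. The highest was chr11:121691437-121691997, with 0.41, 0.93, 0.44 and 0.64 in ERD, 0.29, 0.50 and 0.23 in BLD, and 0.18, 0.28 and 0.16 in STD. All 10 arrays had it above their median, and the lowest ERD array exceeded the highest STD array. The 3 clusters that began closest to the last probe end were chr13:120276809-120277073 (level -0.08), chr10:129907321-129907626 (-0.38) and the chr14 one. Over the 4 comparisons, the lowest adjusted p of these 3 was 0.445 (limma), for BLD minus STD at the chr13 one.

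Neighbouring distal islands did not have like levels. Over 103 pairs of adjacent distal clusters less than 5 kb apart, the correlation of their levels was 0.009, against 0.278 over 1344 such pairs in the rest of the autosomes. These are correlations across cluster pairs that share arrays and chromosomes, given as a description.

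The first diet comparison asked whether the enriched diet was accompanied by other methylation than the standard diet. No distal cluster reached an adjusted p under 0.05 in ERD against STD (limma, Benjamini-Hochberg over all 13835 clusters, background 0%). At an unadjusted p under 0.05, 61 distal clusters (7.24%) were higher in ERD and 84 (9.98%) were lower. The background over all clusters was 7.68% higher and 8.02% lower. The groups did not overlap at 64 distal clusters (7.6%) that were higher in ERD and 88 (10.5%) that were lower, against a background of 7.24% and 9.01%. The shares were thus near those of the whole array. The median difference of the distal clusters was 7e-04, against 0.0033 over all clusters. Without the array STD 3, the share of distal clusters at an unadjusted p under 0.05 was 8.91%, against 17.2% with all arrays. ERD arrays also had a wider spread of ratios than STD arrays (interquartile ranges above), and a larger share of spots well above background, 89.7% against 82.3% of the distal ones. That share was 14.1% with all arrays scaled to one interquartile range, and with only probes well above background on all arrays it was 18.4%.

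The share of lower calls was highest in the outermost bin. Of the 186 clusters in the outermost Mb, 26 (14%) were lower and 7 (3.76%) were higher in ERD than in STD at an unadjusted p under 0.05, with a median difference of -0.03. The background over all clusters was 8.02% lower and 7.68% higher. Between 1 and 2 Mb, 13 of 175 were lower and 11 higher, between 2 and 3 Mb 12 of 161 and 18, between 3 and 4 Mb 15 of 168 and 15, and between 4 and 5 Mb 18 of 152 and 10. Outside the distal set, between 5 and 10 Mb, 45 of 661 were lower and 67 higher. The share of lower ones thus did not fall off steadily with distance. The 26 lower ones lay on 11 chromosomes, with 7 on chromosome 4 and 5 on chromosome 2, and their differences ran from -0.74 to -0.19. The share of lower ones was 8.6% without STD 3 (2.15% higher) and 9.14% after all arrays were scaled to one interquartile range (5.91% higher). After normexp background correction it was 4.84%, with 5.38% higher, so the surplus of lower calls was then gone. A count within 1 Mb was chosen after the data were seen and has no test of its own.

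The calls divided by level. Of the 59 distal clusters above the median on all arrays, 12 were higher and 0 lower in ERD than in STD at an unadjusted p under 0.05, and of the 136 below the median on all arrays, 0 were higher and 26 lower. The other autosomal clusters showed the same division, with 202 higher and 1 lower of 1040 above the median, and 12 higher and 325 lower of 2049 below it. The arrays that set these classes also enter the comparison, and ERD arrays had the wider spread, so this division is a description.

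**Figure D3:**
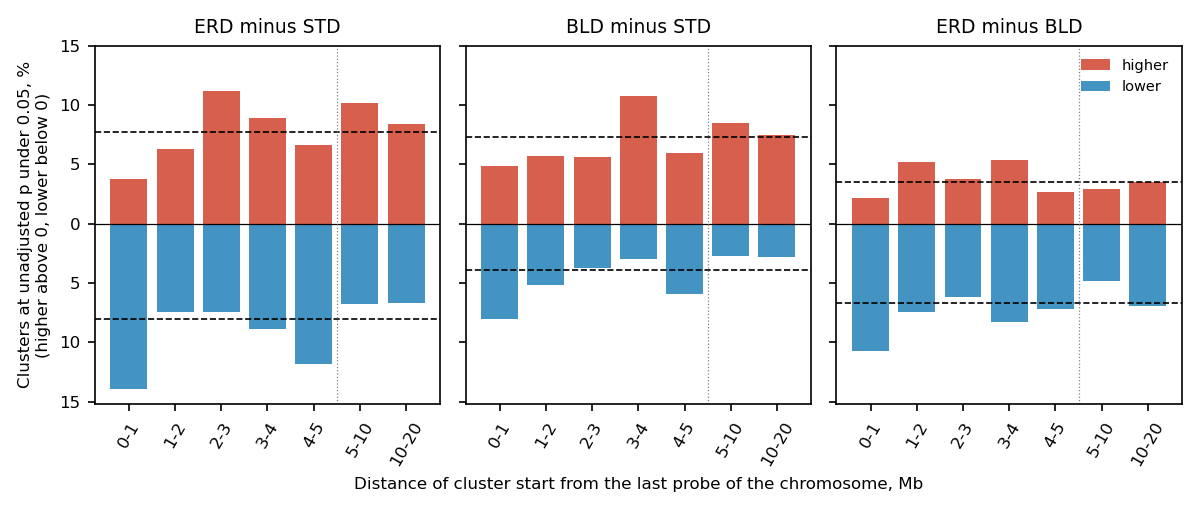
Share of autosomal clusters (vertical axis, %) that were higher (above 0) or lower (below 0) at an unadjusted p under 0.05 by distance from the last probe (horizontal axis, Mb), for ERD minus STD, BLD minus STD and ERD minus BLD. Dashed lines are the shares over all 13835 clusters and the dotted line marks 5 Mb. In the outermost Mb 26 of 186 clusters were lower and 7 higher in ERD than in STD.

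The distal island with the lowest p for ERD minus STD lay at the last probe of chromosome 9 on the array. The cluster chr9:123760507-123761334 has 5 probes, among them the last probe of the chromosome. Its log2 ratio was -0.62, -0.49, -0.80 and -0.48 in ERD, -0.37, -0.22 and -0.30 in BLD, and 0.05, 0.24 and 0.09 in STD. The 3 diets did not overlap, and BLD lay between ERD and STD. The difference of ERD minus STD was -0.72 ± 0.10 (SE) with an adjusted p of 0.0602 (limma), and no other distal cluster had an adjusted p under 0.1. On slide 4, which held an array of BLD and an array of STD, BLD 3 was lower than STD 1 by a difference of -0.35.

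**Figure D4:**
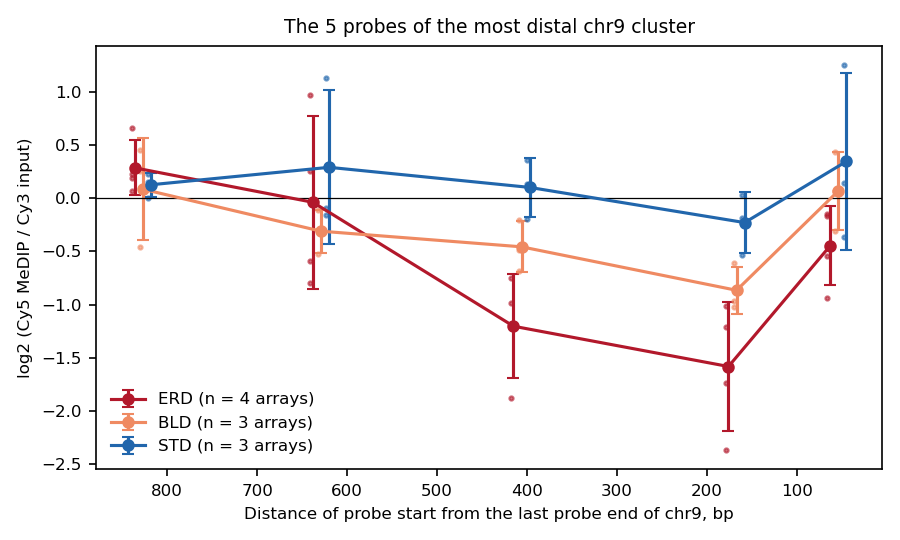
Log2 ratio of MeDIP over input (vertical axis) of the 5 probes of the most distal chromosome 9 cluster by distance from the last probe end (horizontal axis, bp, last probe at the right), as mean ± SD over 4 ERD, 3 BLD and 3 STD arrays with single arrays as small points and the diets shifted sideways by a few bp. The 3rd and 4th probes, at 406 and 167 bp, average -1.20 and -1.58 in ERD and 0.10 and -0.23 in STD.

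The probes of this cluster did not move alike. The mean difference was widest in the 4th and 3rd probes. The 3rd, 406 bp from the last probe end, averaged -1.20 ± 0.49 in ERD, -0.46 ± 0.24 in BLD and 0.10 ± 0.28 in STD. The 4th probe, at 167 bp, averaged -1.58 ± 0.61 in ERD, -0.87 ± 0.22 in BLD and -0.23 ± 0.29 in STD. In both, all ERD arrays lay below all STD arrays. The 1st probe, at 827 bp, averaged 0.29 ± 0.26 in ERD, 0.09 ± 0.48 in BLD and 0.13 ± 0.11 in STD, and there the diets overlapped. The 2nd probe, at 629 bp, varied widely within diets and averaged -0.04 ± 0.81 in ERD, -0.31 ± 0.20 in BLD and 0.29 ± 0.73 in STD. The last probe of the chromosome on this array averaged -0.45 ± 0.37 in ERD, 0.07 ± 0.37 in BLD and 0.35 ± 0.83 in STD, with 6 of 10 spots well above background. Its means followed the same order as the cluster, but its ERD and STD arrays overlapped.

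Among the other distal clusters with a lower ratio in ERD than in STD, chr8:130883235-130883565 had -0.71, -0.45, -0.94 and -0.53 in ERD, -0.12, -0.13 and -0.27 in BLD, and -0.21, 0.37 and 0.08 in STD. ERD lay below both other diets, and the difference of ERD minus STD was -0.74 ± 0.15 (adjusted p = 0.156). Its middle probe, which enters that mean, was well above background on 2 of 10 arrays, none of them STD. The cluster chr9:119353943-119354282 had -1.15, -0.68, -0.73 and -0.97 in ERD, -0.07, -0.45 and -0.27 in BLD, and -0.32, -0.28 and -0.03 in STD. Here BLD and STD overlapped and ERD lay below both, with -0.67 ± 0.14 for ERD minus STD (adjusted p = 0.156) and -0.62 ± 0.14 for ERD minus BLD (adjusted p = 0.422). The cluster chr2:181414772-181415489, 184.8 kb from the last probe of chromosome 2, had -0.42, -0.24, -0.59 and -0.37 in ERD, -0.34, -0.20 and -0.02 in BLD, and 0.06, 0.27 and 0.09 in STD. STD lay above both other diets, and ERD minus STD was -0.54 ± 0.11 (adjusted p = 0.156). The 10 probes of chr19:60865799-60866863 gave a narrow group in ERD at -0.42, -0.38, -0.39 and -0.40, against -0.14, -0.26 and -0.12 in BLD and -0.02, -0.07 and 0.01 in STD. The 3 diets did not overlap there, and ERD minus STD was -0.37 ± 0.08 (adjusted p = 0.156).

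The remaining named lower clusters were chr16:96348653-96349871 (-0.52 ± 0.11), chr14:122933384-122933868 (-0.69 ± 0.15) and chr1:193398739-193399990 (-0.46 ± 0.11), with adjusted p between 0.156 and 0.18. The chr1 cluster, of 12 probes, was among the 6 lowest islands in level, and it was low in all diets at -0.71, -0.88, -0.99 and -0.84 in ERD, -0.79, -0.72 and -0.51 in BLD, and -0.47, -0.46 and -0.25 in STD. After normexp background correction the differences of the chr9:119353943, chr16 and chr14 clusters turned to 0.11, 0.10 and 0.0003. The other named lower differences shrank under it, to between -0.08 at the chr1 cluster and -0.0177 at chr8:130883235, with -0.06 at the last chr9 cluster.

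Of the clusters with a higher ratio in ERD than in STD, chr5:148673891-148674376 had the widest difference in the processed signals. Its log2 ratio was 1.10, 2.05, 1.12 and 0.96 in ERD, 1.23, 1.24 and 0.56 in BLD, and -0.08, 0.11 and 0.11 in STD. ERD and BLD overlapped and lay above all STD arrays, and ERD minus STD was 1.26 ± 0.24 (adjusted p = 0.156). It has 4 probes, and 67.5% of its spots were well above background. The 3rd probe was well above background on 0 of 3 STD arrays and the 1st and 4th on 1 of 4 ERD arrays each, so the size of the difference rests in part on spots near background. After normexp background correction it was 0.22 (adjusted p = 0.508). The cluster chr15:101858440-101858891 had 0.54, 0.64, 0.68 and 0.43 in ERD, 0.43, 0.18 and 0.17 in BLD, and 0.17, 0.07 and -0.14 in STD. ERD lay above STD at each array, and the difference was 0.54 ± 0.11 (adjusted p = 0.156). The cluster chr15:99256217-99256582 had 0.80, 1.03, 0.52 and 0.66 in ERD, 1.23, 0.48 and 0.03 in BLD, and 0.18, 0.00 and -0.27 in STD. The BLD arrays spanned from the STD level to above the ERD level, and ERD minus STD was 0.78 ± 0.23 (adjusted p = 0.193).

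The other 5 named higher clusters were chr13:119503052-119503377 (0.48 ± 0.13), chr8:127275094-127275410 (0.58 ± 0.15), chr2:179666703-179666952 (0.50 ± 0.13), chr15:101096880-101097578 (0.43 ± 0.12) and chr15:102109681-102110272 (0.32 ± 0.09), with adjusted p between 0.181 and 0.193. Thus 4 of the 8 lay on chromosome 15, which holds 120 of the 842 distal clusters. After normexp background correction the chr8 one turned to -0.32 and chr15:101096880 to -0.07.

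**Figure D5:**
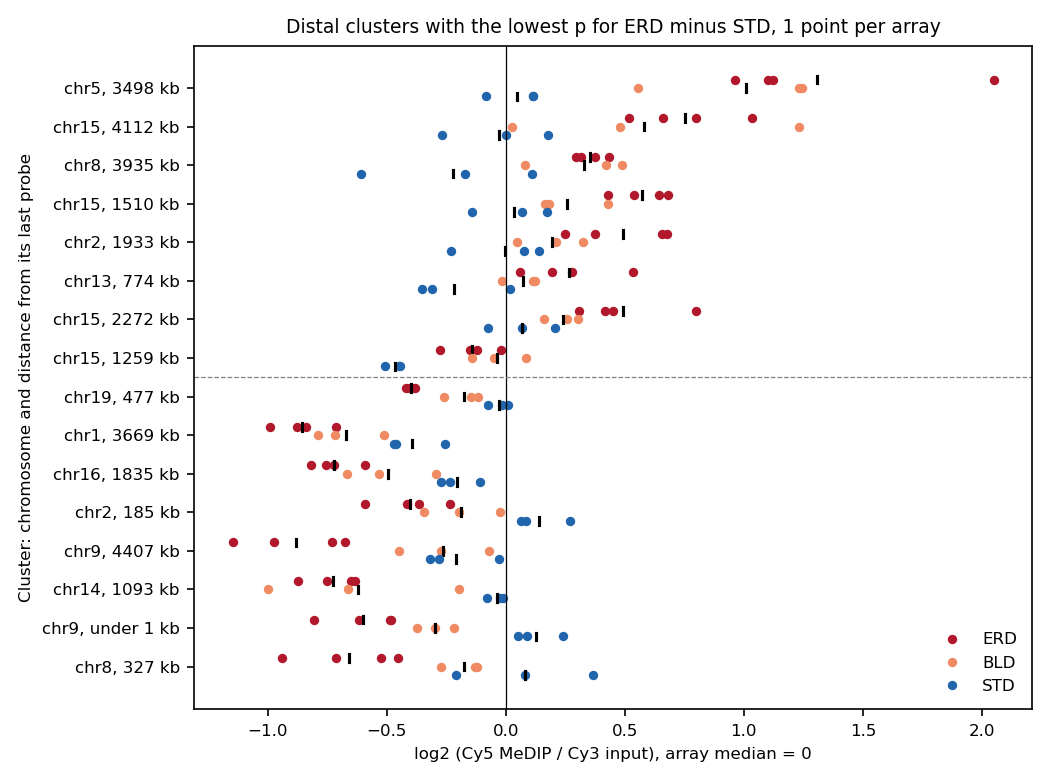
Log2 ratio of MeDIP over input (horizontal axis) on each array for the 16 distal clusters named for ERD minus STD. These are the 8 higher (above the dashed line) and the 8 lower (below it) with the lowest p in their direction. Only clusters whose direction was the same whichever array was left out were taken. Points are ERD (4 arrays), BLD (3) and STD (3), with black ticks at diet means. In the chromosome 9 cluster under 1 kb from the last probe the ERD arrays lie between -0.80 and -0.48 and the STD arrays between 0.05 and 0.24.

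The second comparison set the balanced against the standard diet. No distal cluster reached an adjusted p under 0.05 (limma, background 0%), and 99 had an unadjusted p under 0.05. Of these, 55 (6.53%) were higher in BLD and 44 (5.23%) were lower, beside a background of 7.31% higher and 3.89% lower. Without overlap, 84 (9.98%) were higher and 63 (7.48%) lower, beside 11.1% and 6.27%. The share of distal clusters at an unadjusted p under 0.05 was 11.8% with all arrays and depended on single arrays. It was 4.51% without BLD 1, 5.23% without BLD 2, 20.9% without BLD 3 and 7.6% without STD 3. With the slide as a fixed block it was 1.19%. Only slide 4 held both diets, so the difference in that fit rests on BLD 3 and STD 1 alone. That share therefore cannot tell an effect of slide from the loss of arrays.

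The named clusters of this comparison had an adjusted p of 0.44 each. Among the 5 higher clusters with the lowest p, the widest difference was at chr10:127650212-127650553, with 0.66, 0.58 and 0.04 in BLD against -0.63, -0.29 and -0.29 in STD, a difference of 0.82 ± 0.18. The BLD arrays lay above all STD arrays, BLD 3 by the smallest margin. The 3rd of its 3 probes, which enters that mean, was well above background on 4 of 10 arrays, 1 of them BLD. After normexp background correction the difference at this cluster was 0.14. Over all distal clusters the widest higher difference of BLD minus STD was 0.96 ± 0.26 at chr5:148673891-148674376, which was not among those 5. The other higher ones were chr15:102865150-102865470 (0.65 ± 0.15), chr10:126467540-126468038 (0.65 ± 0.15), chr1:193962248-193962579 (0.52 ± 0.13) and chr15:102109681-102110272 (0.43 ± 0.10). At chr10:126467540, 60% of spots were well above background, and 44.4% of those on STD arrays. The chr15:102109681 cluster was also among the higher ones in ERD, and both comparisons share the STD arrays. The lower ones were chr14:122933384-122933868 (-0.58 ± 0.16), chr8:129494647-129495233 (-0.47 ± 0.14), the last chr9 cluster (-0.42 ± 0.11), chr2:179837964-179839518 (-0.42 ± 0.12) and chr7:152127010-152127627 (-0.39 ± 0.12). The chr7 cluster lies 265.4 kb from the last probe of chromosome 7 and had -0.32, -0.33 and -0.28 in BLD, against 0.29, -0.08 and 0.06 in STD. Its BLD arrays agreed closely with each other and lay below all STD arrays. After normexp background correction, 5 of the 10 named clusters of this comparison kept their sign, and all 10 differences were smaller.

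The third comparison set the enriched against the balanced diet. No distal cluster reached an adjusted p under 0.05 (limma, background 0%), and 100 had an unadjusted p under 0.05, with 32 (3.8%) higher in ERD and 68 (8.08%) lower. The background was 3.48% higher and 6.71% lower. Without overlap, 33 (3.92%) were higher and 66 (7.84%) lower, beside 3.32% and 6.79%. Lower calls outnumbered higher ones in all 5 distal bins, with 20 lower and 4 higher of 186 in the outermost Mb and 13 and 9, 10 and 6, 14 and 9, and 11 and 4 in the bins that follow. They did so as well between 5 and 10 Mb, with 32 and 19 of 661, and over all clusters, with 929 and 481 of 13835. Without BLD 2, the share of distal clusters at an unadjusted p under 0.05 was 7.48%, against 11.9% with all arrays.

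A pair of islands 1705 bp apart on chromosome 15 had its highest values on BLD 1 and BLD 2. The cluster chr15:102863049-102863445 had -0.35, -0.10, 0.13 and -0.15 in ERD, 1.01, 0.93 and 0.15 in BLD, and 0.21, 0.01 and 0.26 in STD. BLD lay above all ERD arrays, and ERD minus BLD was -0.81 ± 0.19 (adjusted p = 0.422), but 27.5% of its spots were well above background. Its neighbour chr15:102865150-102865470 had -0.27, 0.09, -0.32 and -0.25 in ERD, 0.25, 0.64 and 0.07 in BLD, and -0.27, -0.33 and -0.39 in STD. ERD 2 exceeded BLD 3 there, and ERD minus BLD was -0.50 ± 0.14 (adjusted p = 0.432). The other named lower ones were chr9:119353943-119354282, chr10:126467540-126468038 (-0.61 ± 0.14), chr15:100444900-100445424 (-0.44 ± 0.12) and chr8:126382816-126383815 (-0.43 ± 0.11), each with an adjusted p of 0.422. Normexp background correction shrank the differences at these clusters and at chr15:102863049, to between -0.16 at chr9:119353943 and -0.03 at chr10:126467540. The higher clusters named next then lay between 0.35 and 0.45.

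The higher ones in ERD against BLD had adjusted p between 0.422 and 0.452, and 3 of the 5 lay on chromosome 10. That chromosome holds 72 of the 842 distal clusters. At an unadjusted p under 0.05, 6 of its clusters were higher and 8 lower in this comparison. The cluster chr10:128133023-128133262 had 0.29, 0.34, 0.35 and 0.32 in ERD, against -0.06, -0.02 and 0.08 in BLD, a difference of 0.33 ± 0.09. Its arrays were close together within each diet and did not overlap. The others were chr10:127058642-127059063 (0.50 ± 0.15), chr7:149246259-149247088 (0.49 ± 0.16), chr2:181326975-181327730 (0.43 ± 0.13) and chr10:128346978-128347466 (0.37 ± 0.12).

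The last comparison took each diet by its fatty acid ratio (log2 of n-3:n-6, as a numeric term), over 1:6 in STD, 1:1 in BLD and 7:1 in ERD. One distal cluster passed, and 6 did over all clusters (background 0.0434%). At an unadjusted p under 0.05, 57 (6.77%) had a rising slope and 80 (9.5%) a falling one, beside a background of 7.09% and 7.94%. Without STD 3 the share was 10.8%, against 16.3% with all arrays. The cluster that passed was the last one of chromosome 9, which fell by 0.13 ± 0.02 (SE) in log2 ratio per doubling of the n-3:n-6 ratio (slope -0.13, adjusted p = 0.0439). Its means were 0.13 ± 0.10 in STD, -0.30 ± 0.08 in BLD and -0.60 ± 0.15 in ERD (SD). Without 1 array the slope lay between -0.14 and -0.12. Under 9 of the 10 other settings in which the cluster could be fitted it lay between -0.14 and -0.11, but after normexp background correction it was -0.0115 (adjusted p = 0.685), more than 10 times smaller. It passed under 4 of the 10 settings and in 1 of the 10 fits without an array, the one without BLD 1. It did not pass without ERD 1 (adjusted p = 0.0984), ERD 2 (0.0747), ERD 3 (0.125), ERD 4 (0.0834), BLD 2 (0.0832), BLD 3 (0.0895), STD 1 (0.0972), STD 2 (0.247) or STD 3 (0.182). The other falling slopes among the 3 with the lowest p were -0.14 ± 0.03 at chr8:130883235-130883565 and -0.09 ± 0.02 at chr16:96348653-96349871, both with an adjusted p of 0.115. The 3 rising slopes with the lowest p were 0.23 ± 0.05 at chr5:148673891-148674376 (adjusted p = 0.119), 0.10 ± 0.02 at chr15:101858440-101858891 (0.115) and 0.09 ± 0.02 at chr2:179666703-179666952 (0.168).

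The spread within a diet was much the same near the ends as elsewhere, with a median within-diet SD of 0.158 over the distal clusters, against 0.159 over the others. The widest spread was at 3 clusters of 3 probes. The cluster chr19:57776539-57776755 had 0.71, 1.36, 0.22 and 0.81 in ERD, 0.86, 1.44 and 0.26 in BLD, and 0.03, 1.04 and -0.12 in STD. The cluster chr15:100111219-100111481 had 0.62, 1.56, 0.30 and 0.59 in ERD, 0.81, 0.42 and 0.40 in BLD, and 0.36, 1.36 and 0.15 in STD. In both, ERD 2 and STD 2 were the highest arrays of their diets, and the diets overlapped. The third was chr15:102567799-102568101, whose arrays ran from -0.06 to 1.51 in ERD, from 0.24 to 1.29 in BLD and from -0.09 to 0.15 in STD. At chr19:57776539 and chr15:102567799, 66.7% of spots were well above background, against 96.7% at chr15:100111219. Normexp background correction lowered the within-diet SD from 0.55 to 0.23 at chr19:57776539 and from 0.55 to 0.14 at chr15:102567799. At chr15:100111219 this SD fell from 0.51 to 0.25. Over the distal clusters, pairs of ERD arrays correlated at a mean of 0.712 and pairs of BLD arrays at 0.719, while pairs of STD arrays correlated at 0.477. Between diets the mean was 0.67 for ERD with BLD, 0.505 for ERD with STD and 0.479 for BLD with STD. STD arrays thus correlated no better with each other than with arrays of the other diets.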

How the data were processed

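Genomic DNA of 10 left hemibrains was measured by MeDIP on Agilent 2-colour CpG-island arrays, with Cy5 for immunoprecipitated and Cy3 for input DNA, per the labels. Per the file headers, Agilent Feature Extraction 10.7.3.1 made the spot intensity values, while the submitters' processing notes list 9.0. The deposited processed intensity of each channel is background-subtracted and dye-normalized by a linear factor, per the file headers, and the median spot and background intensity are deposited beside it. The deposited log10 ratio of Cy5 over Cy3 and the series value table, which differ by at most 0.00498, served as an alternative. Other deposited columns, such as flags, are codes.

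The log2 ratio of the processed signals was computed here without spots flagged as outliers (123 of 51910 distal spots), with saturated spots kept, centred on each array's median with no loess or quantile step. All 10 arrays entered 1 limma fit for the pairs of diets and 1 for the trend (limma 3.58.1, R 4.3.3), with Benjamini-Hochberg adjustment over 13835 clusters and a threshold of 0.05, after a test of the scripts on simulated data. Named clusters are the members with the lowest p in each direction (8 and 8 for ERD minus STD, 5 and 5 for the other pairs, 3 and 3 for the trend) whose direction was the same whichever array was left out, and the extremes in level (6 and 6), position (3) and spread (3). The members and lists were chosen with earlier results of these data known. No p-value was computed for any score over the members. Alternatives were normexp, loess, quantile and scale normalization, a filter on spots well above background, other cluster and distance limits, the slide as a block, array weights and leaving out each array. The number of arrays limits the precision. With the same dye orientation on all arrays, a dye effect on a probe stays in its level. Arrays lay 2 to a slide on 5 slides, and only slide 4 held 2 diets (BLD and STD). For ERD, diet and slide thus cannot be told apart, and slide as a random block does not separate them.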

Additional observations from a re-analysis of the deposited data

Results flagged for a closer look

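Over 51 groups of 4 ERD arrays that were looked at, 4 had a single array far from the other 3. Chance gives about 1 in 20 in groups not chosen by their values, but most of these clusters were chosen for their p, level or spread, and chr15:102567799-102568101 for a wide spread within diets, so that share is no measure here. At chr5:148673891-148674376, ERD 2 had a log2 ratio of 2.05, and the other ERD arrays lay between 0.961 and 1.122. At chr15:102567799-102568101, ERD 2 had 1.509, and the others lay between -0.055 and 0.202. At chr15:102865150-102865470, ERD 2 had 0.089, and the others lay between -0.318 and -0.254. At chr9:120213241-120213544, one of the 6 lowest islands, ERD 4 had -0.455, and the others lay between -1.086 and -0.985. In 3 of these 4 clusters the array apart was ERD 2, on the high side each time. Of all 10 arrays ERD 2 had the widest spread over the distal clusters (interquartile range 0.476) and the largest share of distal spots well above background (95.6%). The part of either in these values was not tested.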

How the results depend on the processing

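No paired analysis was possible because the labels carry no replicate numbers shared between diets. Normexp background correction with an offset of 50 moved most values. The shares of distal clusters at an unadjusted p under 0.05 were then 9.5% for ERD minus STD, 4.16% for BLD minus STD, 0.594% for ERD minus BLD and 10.1% for the trend, 0 clusters passed the trend, the level difference was -0.0013, and 3.09% and 0.356% of members were above and below the median on all arrays. Of the 16, 10, 10 and 6 named clusters of ERD minus STD, BLD minus STD, ERD minus BLD and the trend, 13, 10, 5 and 5 then had a value over 1.5 times smaller in size. Under normexp the sign turned for ERD minus STD at chr8:127275094 (-0.3234), chr15:101096880 (-0.0734), chr9:119353943 (0.1148), chr16:96348653 (0.0960) and chr14:122933384 (0.0003). It turned for BLD minus STD at chr15:102865150 (-0.0566), chr1:193962248 (-0.1219), chr10:126467540 (-0.1489), chr14:122933384 (0.1191) and chr8:129494647 (0.2300), for the slope at chr16:96348653 (0.0189), and for the levels at chr5:148673891 (-0.0265) and chr13:120276809 (0.0420). The count past the trend was 0 with loess, scaling, the background filter, a 250 bp gap, the median of probes and the slide as a random block, 2 with quantile normalization and 6 with array weights. With the background filter the last chr9 cluster kept under 3 probes and was not fitted, and with the 250 bp gap its slope was the same (-0.1328) and its adjusted p 0.0588. For ERD minus STD, the chr5:148673891 and the last chr9 cluster (2 in all) passed with quantile normalization and 1, the chr9 one, with array weights. Scaling gave 6.29% for ERD minus BLD, array weights 19.1% and the slide as a fixed block 1.19% for BLD minus STD. The fixed block compares these diets only on the slide that held both. The share below the median was 19.3% with the background filter and 10.9% with the median of probes. A 2 Mb limit, against all autosomal clusters beyond it, gave a level difference of -0.0405 and 19.7% below the median, a 10 Mb limit 0.0098, and clusters of over 10 probes -0.0371. Without 1 array, the shares ran from 8.91% to 18.3% for ERD minus STD, 4.51% to 20.9% for BLD minus STD, 7.48% to 12.9% for ERD minus BLD and 10.8% to 18.3% for the trend, the trend count from 0 to 1, and the shares above and below the median from 7.13% to 10.9% and 16.4% to 19.2%. The cause of these moves was not tested. The other 214 recomputed counts, shares and levels moved by at most 1.5 times, or by less than 1 SD for the level. For the outermost Mb, added after the data were seen, the lower share in ERD minus STD ran from 4.84% to 20% and the level difference from -0.0562 to -0.0144.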
